A study of Mus musculus with 2 samples.

Results

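The Yap-Tead pathway and its target genes were described in mouse embryonic stem cells (ESCs) through 10 genes, Yap1, Tead1, Tead2, Tead4, Lats2, Ajuba, Amotl2, Ctgf, Cyr61 and Ankrd1, which were selected by symbol from the 24532 genes of the expression table. All 10 were found, and Ctgf and Cyr61 are written Ccn2 and Ccn1 in the RefSeq annotation. RNA-seq of polyadenylated RNA was performed on 1 library of wild-type E14 cells, an established mouse ESC line, and 1 library of Sox2 T258A cells, written E14-Sox2TA/WT here. In this line, 1 allele of Sox2 encodes alanine in place of threonine 258, a residue that can carry the sugar O-GlcNAc, and the other allele is wild type. The study's methods describe E14-Sox2TA/WT cells as derived from single edited cells that were selected and kept under inhibitors of Mek and Gsk3 (2i) on top of serum and leukemia inhibitory factor, and used some passages after 2i withdrawal, whereas the E14 parent line was kept in serum and this factor without 2i. Genotype, clonal origin and culture history therefore cannot be told apart in this comparison.

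The Hippo pathway is a chain of kinases that holds back growth and responds to cell shape, cell contact and tension of the actin cytoskeleton. Its last kinases, Lats1 and Lats2, phosphorylate the coactivator Yap (Yap1) and its relative Taz (Wwtr1), which are then kept out of the nucleus. Unphosphorylated Yap enters the nucleus, binds the Tead DNA-binding proteins and activates genes such as Ctgf, Cyr61 and Ankrd1. In the early mouse embryo, Yap and Tead4 act in the outer cells that form the trophectoderm. Much of this control acts on protein, so mRNA levels of the kinases and of Yap1 do not report the activity of the pathway.

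Gene counts summed to 60263536 reads in E14 and 44609228 in E14-Sox2TA/WT cells. Levels are given as TPM, a share of all transcripts that is scaled for transcript length, and a gene was called when its TPM was at least 10 in at least 1 library and differed more than 2-fold, both limits being those of the study. With 1 library per genotype none of the differences could be checked in replicates or tested. The 95% intervals below come from the read counts by the exact Clopper-Pearson method, are placed on the TPM ratio and cover counting error only. Sox2 itself had a TPM of 373 in E14 and 274 in E14-Sox2TA/WT cells, and the table cannot show the edited base. All 10 ESC markers examined (Pou5f1, Nanog, Esrrb, Zfp42, Dppa5a, Utf1, Klf4, Tdgf1, Fgf4 and Dppa4) were expressed in both libraries, at a TPM of 104 to 6877. Of these, 1, Nanog, was more than 2-fold lower in E14-Sox2TA/WT cells (log2 ratio -1.07), where 4.07% of all genes past the filter were. The median log2 ratio of the 10 markers was -0.28, beside 0.08 for all genes past the filter, and 6 of the 10 had a ratio below 1. In bulk RNA, fewer cells that express a gene and less RNA per cell cannot be told apart.

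The coactivator and its DNA-binding partners were examined first. Yap1 (Entrez gene 22601; chromosome 9, 7931999 to 8004638, GRCm38) was measured with 9268 reads in E14 and 8691 in E14-Sox2TA/WT cells, which gave a TPM of 71.0 and 99.5. It was 1.40-fold higher in the mutant (95% counting interval 1.36 to 1.44), short of 2-fold. Wwtr1, which encodes Taz, differed by less than the counting error, with a TPM of 24.2 in E14 and 23.8 in E14-Sox2TA/WT cells (log2 ratio -0.02, -0.10 to 0.05). The TPM ratio of Wwtr1 to Yap1 inside a library was therefore 0.341 in E14 and 0.239 in E14-Sox2TA/WT cells, a comparison that does not depend on how the libraries are scaled to each other. The Vgll cofactors, which also bind Tead proteins, were low in both libraries, with Vgll1 to Vgll4 all under a TPM of 10. At this low level Vgll3 was higher in the mutant, with 75 and 177 reads (TPM 0.713 and 2.51, log2 ratio 1.82, 1.42 to 2.23). Vgll4 had a TPM of 2.97 and 5.28 (log2 ratio 0.83, 0.47 to 1.19). Vgll1 had 8 and 3 reads and Vgll2 had 7 and 4.

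Tead2 was the most abundant of the Tead genes. Tead2 (Entrez gene 21677; chromosome 7, 45215792 to 45233468) was measured with 11668 and 6933 reads, a TPM of 175 and 155 in E14 and E14-Sox2TA/WT cells, and it was the only one of the 10 genes with a lower TPM in the mutant (log2 ratio -0.17, -0.22 to -0.13). This small difference changed sign, to 0.036, when a trend of the ratio on GC content and transcript length was removed. Tead1 (Entrez gene 21676; chromosome 7, 112679356 to 112906784) was higher in the mutant, at 13748 and 14448 reads and a TPM of 44.2 and 71.8 in the respective libraries. Its log2 ratio was 0.70 (0.67 to 0.73), or 0.25 with the trend removed. The Tead1 transcript is long, 9964 bases in the annotation used here, so this gene is exposed to a length trend. Tead4 (Entrez gene 21679; chromosome 6, 128227143 to 128300813), the factor of the trophectoderm, was low, with a TPM of 10.9 (1049 reads) and 15.0 (968 reads). Its log2 ratio was 0.46 (0.34 to 0.59), and its level relative to Yap1 was nearly the same in both libraries (0.153 and 0.151). Tead3, the remaining family member, had a TPM of 6.42 and 9.30 (log2 ratio 0.54, 0.36 to 0.71).

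The summed TPM of the 4 Tead genes was 237 in E14 and 252 in E14-Sox2TA/WT cells, so the total differed little while its composition differed more. Tead2 made up 74.0% of it in E14 and 61.8% in E14-Sox2TA/WT cells. Tead1 made up 18.7% and 28.5%, Tead4 4.60% and 5.97%, and Tead3 2.71% and 3.70%. The TPM ratio of Tead1 to Tead2 was 0.252 in E14 and 0.462 in E14-Sox2TA/WT cells, 1.83-fold higher (1.76 to 1.90). On the log2 scale this was a difference of 0.87, and only 0.21 was left with the GC and length trend removed, so most of the shift between Tead1 and Tead2 depends on that setting.

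**Figure D1:**
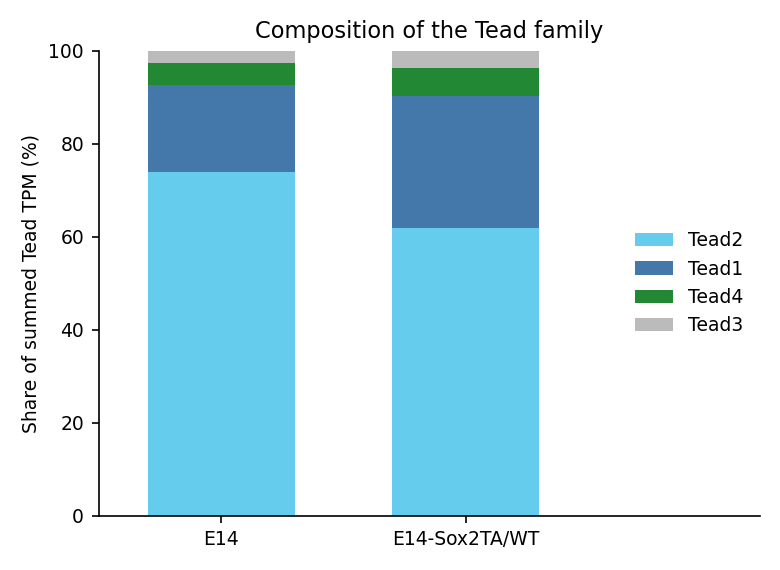
Share of each Tead gene in the summed Tead TPM (percent), 1 bar per library. Tead2 takes 74.0% of the E14 bar and 61.8% of the E14-Sox2TA/WT bar, and Tead1 18.7% and 28.5%.

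Next, the genes that act on Yap and are themselves pathway outputs or scaffolds were examined. Lats2 (Entrez gene 50523; chromosome 14, 57689662 to 57746212) encodes the kinase that phosphorylates Yap and is also a target of Yap in a feedback loop. Its 299 reads in E14 and 743 in E14-Sox2TA/WT cells gave a TPM of 2.95 and 7.72, under the filter in both. Its log2 ratio was 1.39 (1.19 to 1.59), or 2.62-fold higher. By reads scaled to the library total the log2 ratio of Lats2 was 1.75, against 1.24 by FPKM, the other length-scaled value of the table. Among the 10 genes, the 2 measures differed at 2 decimals otherwise only for Tead1, by little (0.51 and 0.56), and the cause was not tested. Lats1, the related kinase, had a TPM of 9.28 and 11.2, and the TPM ratio of Lats2 to Lats1 was 0.318 in E14 and 0.689 in E14-Sox2TA/WT cells.

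Ajuba (Entrez gene 16475; chromosome 14, 54567469 to 54577661) encodes a LIM-domain scaffold that binds and inhibits Lats kinases. Its TPM was 54.6 from 6030 reads in E14 and 117 from 8649 reads in E14-Sox2TA/WT cells, 2.14-fold higher (2.07 to 2.21). This placed Ajuba just past 2-fold, and its log2 ratio of 1.10 became 0.95, under the threshold, with FPKM or with reads scaled to the library total. Amotl2 (Entrez gene 56332; chromosome 9, 102717091 to 102733418), an angiomotin-like junction protein that binds Yap and is one of its target genes, had a TPM of 40.0 (5283 reads) and 75.5 (6678 reads). It was 1.89-fold higher in the mutant (1.82 to 1.96), just under the threshold.

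The 7 genes for angiomotins and related adaptors were all past the filter. Of these, 2 were more than 2-fold higher and none was lower, beside 4.17% and 4.07% of all genes past the filter. The other called gene was Amot, an angiomotin, with a TPM of 4.86 in E14 and 11.1 in E14-Sox2TA/WT cells (log2 ratio 1.19, 1.08 to 1.31), which passed the filter through the mutant library alone. The lowest ratio was that of Wtip, a relative of Ajuba (-0.02). Without the GC and length trend the log2 ratio of Amot was 0.86, under 2-fold. Limd1 and Amotl1 also had a TPM under 10 in E14. All 7 genes had a TPM of at least 1 in both libraries, and their median log2 ratio was 0.91, beside 0.034 over the 13729 genes that reached a TPM of 1 in at least 1 library. The Hippo kinases and their direct regulators showed smaller differences. Of 15 genes, 13 were past the filter and none was called higher or lower, which is near the background of 4.17% and 4.07%. Their log2 ratios ran from -0.57 for Taok3 to 0.84 for Map4k4, with a median of 0.44. Lats1 and Mob1b (TPM 7.83 and 12.4) passed through the mutant library alone. With the TPM filter lowered to 1, 1 of the 15, Lats2, was called higher, where 6.45% of all genes past that filter were.

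The classical target genes Cyr61, Ctgf and Ankrd1 were examined next, and each was more than 2-fold higher in E14-Sox2TA/WT cells. Cyr61 (Entrez gene 16007; chromosome 3, 145646971 to 145649985) and Ctgf (Entrez gene 14219; chromosome 10, 24595442 to 24598683) encode secreted matricellular proteins. For Cyr61, 1496 reads in E14 and 4462 in E14-Sox2TA/WT cells gave a TPM of 23.4 and 104, 4.45-fold higher (4.20 to 4.72). Ctgf had a TPM of 21.9 (1660 reads) and 58.4 (2962 reads), 2.66-fold higher (2.51 to 2.83). The 2 genes were thus expressed at about the same level in E14 cells, with a TPM ratio of Cyr61 to Ctgf of 1.07, and this ratio was 1.78 in E14-Sox2TA/WT cells. Ankrd1 (Entrez gene 107765; chromosome 19, 36111965 to 36119844), an ankyrin-repeat protein of muscle and a strong Yap target in many cells, was scarcely expressed, with a TPM of 0.571 (32 reads) and 2.96 (111 reads). Its log2 ratio of 2.37 was the highest of the 10 genes but had a wide counting interval (1.79 to 2.99), and it was 1.33 with a pseudocount of 1 TPM.

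**Figure D2:**
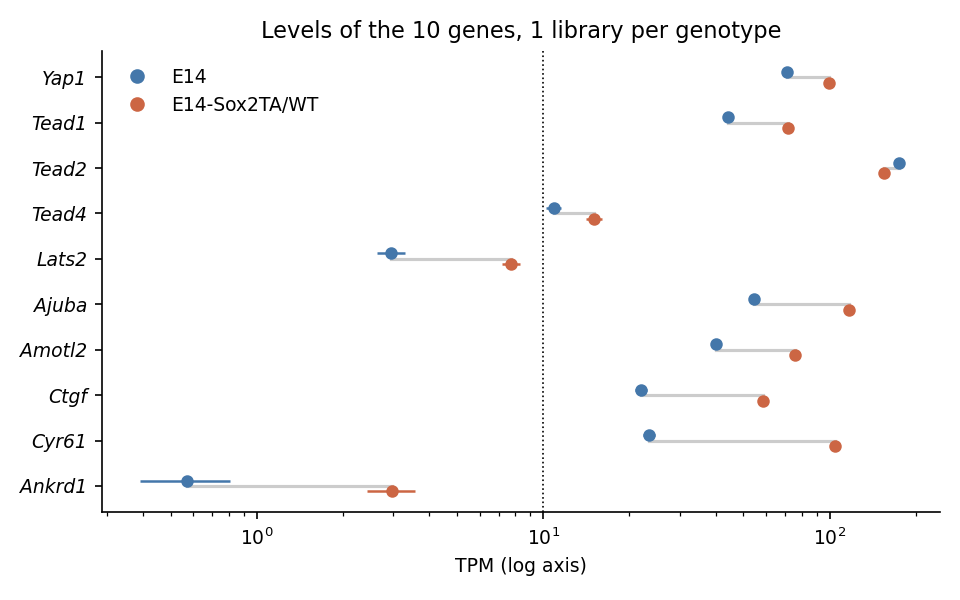
TPM of the 10 genes (log axis) in E14 and E14-Sox2TA/WT cells, 1 point per library, with exact 95% Poisson intervals of the read counts as bars (most are narrower than the points) and a dotted line at a TPM of 10. Tead2 lies slightly lower in the mutant, the other 9 genes lie higher, and Lats2 and Ankrd1 stay left of the line.

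Promoter sequences were examined for the core of the Tead binding site, since several target genes were higher in the same library. The 250 bases before an annotated start were taken from the RefSeq promoter table (GRCm38.p6). It gave windows for Cyr61, Ankrd1, Amotl2, Lats2, Yap1, Tead2 and Ajuba, 7 of the 10 genes. For Amotl2 (window 102717554 to 102717803), Lats2 and Yap1 (window 8004597 to 8004846), the start after the window lies inside the gene bounds given above. The windows of these genes therefore do not precede the outermost end of the gene. Ctgf, Tead1 and Tead4 had no entry. The letters GGAATG, searched on both strands, were found in the windows of 5 genes: Cyr61, Ankrd1, Amotl2, Yap1 and Ajuba. Neither of the windows of Lats2 held them, nor did the window of Tead2. Counted by window, 5 of the 8 windows of these genes held GGAATG, beside 12.6% of all 32851 windows in the table. The sequences of the genes with a window that were more than 2-fold higher, whatever their level, are given 5′ to 3′ on the strand of the gene, with GGAATG or its reverse complement CATTCC in capitals.
Cyr61, chr3:145649986-145650235, minus strand: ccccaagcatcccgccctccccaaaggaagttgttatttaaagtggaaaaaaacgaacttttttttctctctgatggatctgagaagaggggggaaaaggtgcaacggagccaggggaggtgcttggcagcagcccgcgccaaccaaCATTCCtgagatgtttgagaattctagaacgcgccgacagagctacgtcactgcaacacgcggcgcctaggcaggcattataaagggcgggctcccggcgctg
Ankrd1, chr19:36119845-36120094, minus strand: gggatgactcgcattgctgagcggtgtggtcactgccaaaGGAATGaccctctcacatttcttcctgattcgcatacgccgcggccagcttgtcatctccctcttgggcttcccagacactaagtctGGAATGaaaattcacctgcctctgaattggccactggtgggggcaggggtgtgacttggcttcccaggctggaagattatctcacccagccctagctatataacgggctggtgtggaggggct
Ajuba, chr14:54577662-54577911, minus strand: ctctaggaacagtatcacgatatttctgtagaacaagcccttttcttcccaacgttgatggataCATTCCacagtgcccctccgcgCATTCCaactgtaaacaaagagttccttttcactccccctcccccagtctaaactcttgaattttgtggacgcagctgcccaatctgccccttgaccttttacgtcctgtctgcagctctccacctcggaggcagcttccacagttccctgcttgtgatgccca
Lats2, chr14:57746124-57746373, minus strand: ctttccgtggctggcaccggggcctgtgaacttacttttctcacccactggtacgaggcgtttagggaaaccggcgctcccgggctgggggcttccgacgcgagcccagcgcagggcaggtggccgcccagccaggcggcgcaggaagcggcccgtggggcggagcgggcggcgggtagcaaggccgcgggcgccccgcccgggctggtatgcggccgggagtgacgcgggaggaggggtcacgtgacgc
In Cyr61 the single match began 103 bases before the start, on the opposite strand. Ankrd1 held 2 matches on its own strand, 210 and 123 bases before the start, and Ajuba held 2 on the opposite strand, 186 and 164 bases before it. In Amotl2 the match lay 65 bases and in Yap1 141 bases before the start that follows the window. The AP-1 site TGANTCA (6.75% of all windows) and the CArG box bound by Srf (1.47%) were not present in the windows of these 7 genes. A match of these letters is a description of the sequence and does not show that a factor binds there.

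As a set, 8 of the 10 genes passed the filter, and all 8 did so in both libraries. Of these 8, 3 (Cyr61, Ctgf and Ajuba) were more than 2-fold higher in E14-Sox2TA/WT cells, where 4.17% of all genes past the filter were called higher. None of the 8 was more than 2-fold lower, where 4.07% of all genes were called lower. The median log2 ratio of the 8 genes was 0.81, beside 0.08 for all genes past the filter, and 7 of the 8 had a ratio above 1, beside 57.3% of all genes. Ranked from the highest ratio among the 9094 genes, Cyr61 was at position 39, Ctgf at 137, Ajuba at 298, Amotl2 at 478, Tead1 at 906, Yap1 at 1727, Tead4 at 1838 and Tead2 at 6433. With the filter lowered to a TPM of 1, which admits Lats2 and Ankrd1, 5 of the 10 genes were called higher and none lower, beside 6.45% and 9.95% of 13729 genes. Ankrd1 (TPM 0.571 in E14) passed this filter through the mutant library alone, so its call is tied to its admission. With no filter the counts were again 5 and 0, beside 10.1% and 18.7% of the 18123 genes then compared. At 1.5-fold they were 5 and 0 (background 14.2% and 10.5%), and at 3-fold 1, Cyr61, and 0 (background 1.14% and 1.5%). With FPKM they were 2 and 0 (background 3.06% and 5.45%), as with reads scaled to the library total (3.08% and 5.45%). Among these 13729 genes Ankrd1 ranked 171 and Lats2 460.

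**Figure D3:**
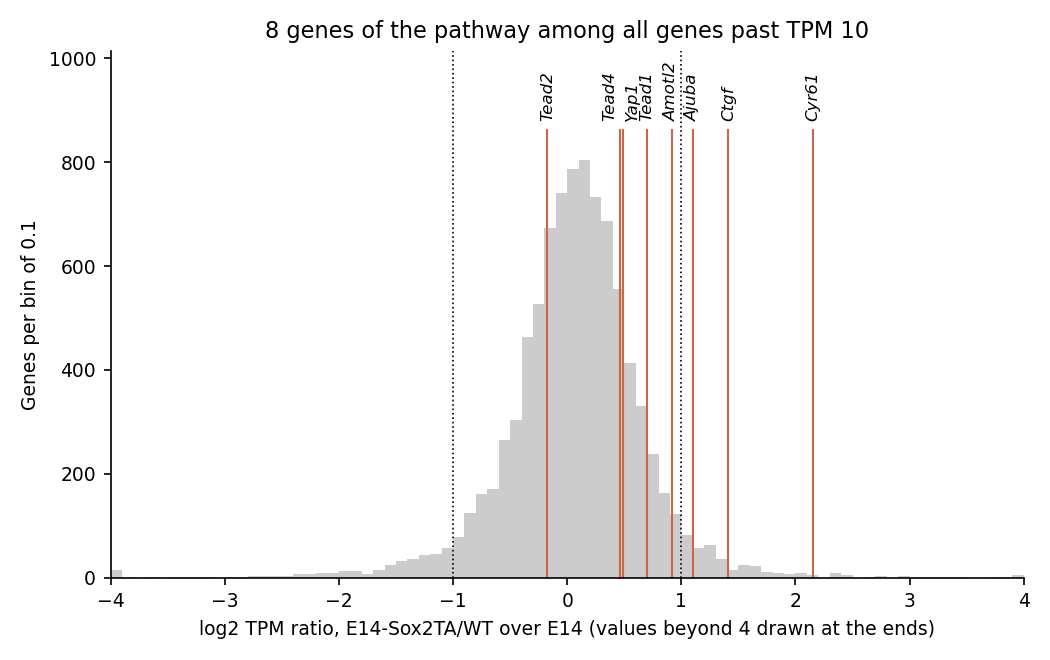
Distribution of the log2 TPM ratio over the 9092 genes past the filter with a TPM above 0 in both libraries (grey, number of genes per bin of 0.1), with the 8 pathway genes past the filter as vertical lines and 2-fold as dotted lines. Cyr61, Ctgf and Ajuba lie right of the upper 2-fold line and Tead2 lies left of 0.

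The regulators and target genes that were higher than Yap1 in ratio, other than Tead1, were also set against Yap1 inside each library. The TPM ratio of Cyr61 to Yap1 was 0.330 in E14 and 1.05 in E14-Sox2TA/WT cells, 3.18-fold higher (2.98 to 3.40). For Ctgf it was 0.309 and 0.587 (1.90-fold, 1.78 to 2.03), for Ajuba 0.769 and 1.18 (1.53-fold, 1.46 to 1.60) and for Amotl2 0.563 and 0.759 (1.35-fold, 1.29 to 1.41). For Ankrd1 the ratio was 0.00804 and 0.0297 (3.69-fold, 2.49 to 5.48) and for Lats2 0.0415 and 0.0776 (1.87-fold, 1.63 to 2.14). By read counts the log2 difference of Lats2 from Yap1 was 1.41, outside its interval by TPM (0.70 to 1.10). Each of these 6 genes therefore differed between the libraries by more than Yap1 did, beyond counting error. After removal of the GC and length trend, the log2 differences from Yap1 were 1.84 for Cyr61, 1.07 for Ctgf, 0.78 for Ajuba, 0.52 for Amotl2, 1.95 for Ankrd1 and 0.83 for Lats2. For Tead1 the difference was then -0.21, for Tead2 -0.42 and for Tead4 0.18.

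**Figure D4:**
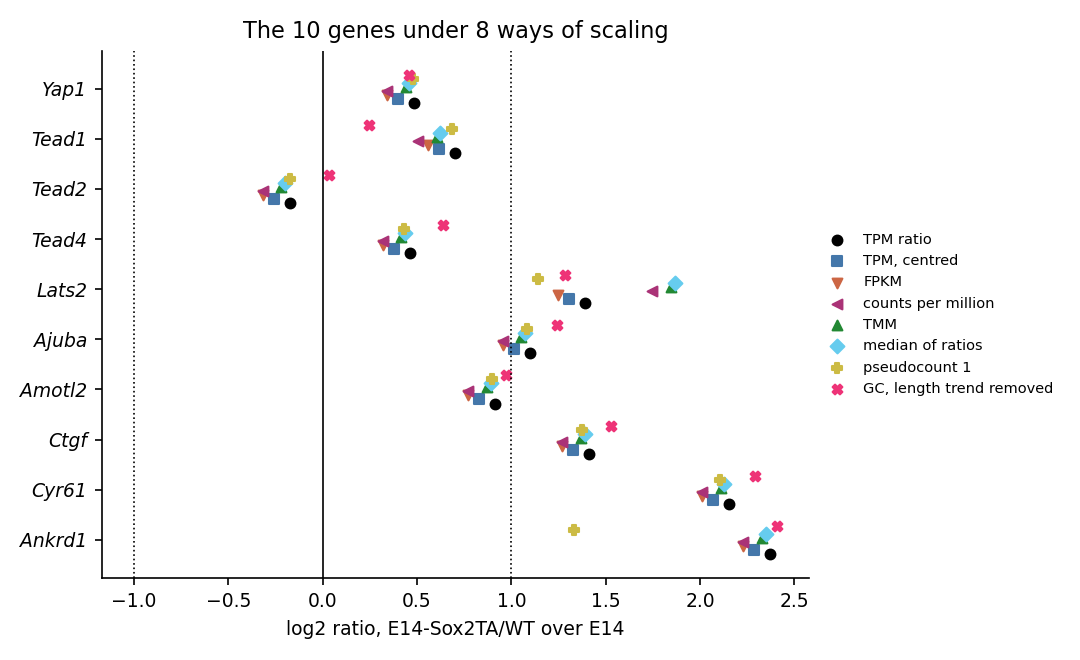
The log2 ratio of each of the 10 genes (E14-Sox2TA/WT over E14) under 8 ways of scaling the values, 1 symbol per setting, with dotted lines at 2-fold. Cyr61, Ctgf, Lats2 and Ankrd1 stay right of 2-fold in every setting drawn, Ajuba lies on both sides of it, and without the GC and length trend Tead1 lies at 0.25 and Tead2 at 0.036.

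A longer list of 22 Yap target genes, written from general knowledge and holding Ctgf, Cyr61, Ankrd1, Amotl2 and Lats2, held genes that were higher and genes that were lower. Of the 22, 13 passed the filter. Of these, 4 were more than 2-fold higher and 1 was lower, beside 4.17% and 4.07% of all genes past the filter. Among the 17 genes of the list that are not among the 10, 10 passed the filter, 2 were higher and 1 was lower, with a median log2 ratio of 0.50. Igfbp3, a secreted binding protein of insulin-like growth factors, had a TPM of 15.4 and 49.4 (log2 ratio 1.68, 1.58 to 1.78). Fjx1, a Golgi kinase of the four-jointed family, had 7.52 and 17.9 (1.25, 1.10 to 1.40) and passed the filter through the mutant library alone. Gadd45a, a stress and DNA damage response gene, had 149 and 51.9 and was the called lower gene of the list (-1.52, -1.61 to -1.44). The other 7 listed targets past the filter did not reach 2-fold. Dock5 (0.87), Ptpn14 (0.68), Arhgef17 (0.53) and Asap1 (0.46) had ratios above 1, and Myof (-0.03), F3, the tissue factor gene (-0.50), and Nt5e (-0.74) had ratios below 1. Dock5 and Arhgef17, like Fjx1, had a TPM under 10 in E14. Under the filter, Tgfb2, a ligand of the transforming growth factor beta family, had 33 and 392 reads (TPM 0.200 and 3.63). Ccdc80 had 3 and 37 reads (log2 ratio 4.18, 2.52 to 6.52). Axl (0.97) and Crim1 (0.77) had ratios above 1. Foxf2 (37 and 10 reads, log2 ratio -1.28, -2.45 to -0.24) and Nuak2 (890 and 404 reads, -0.56) were lower. These genes under the filter were named after their values had been seen. Rbms3 had 0 and 4 reads, too few for a ratio.

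**Figure D5:**
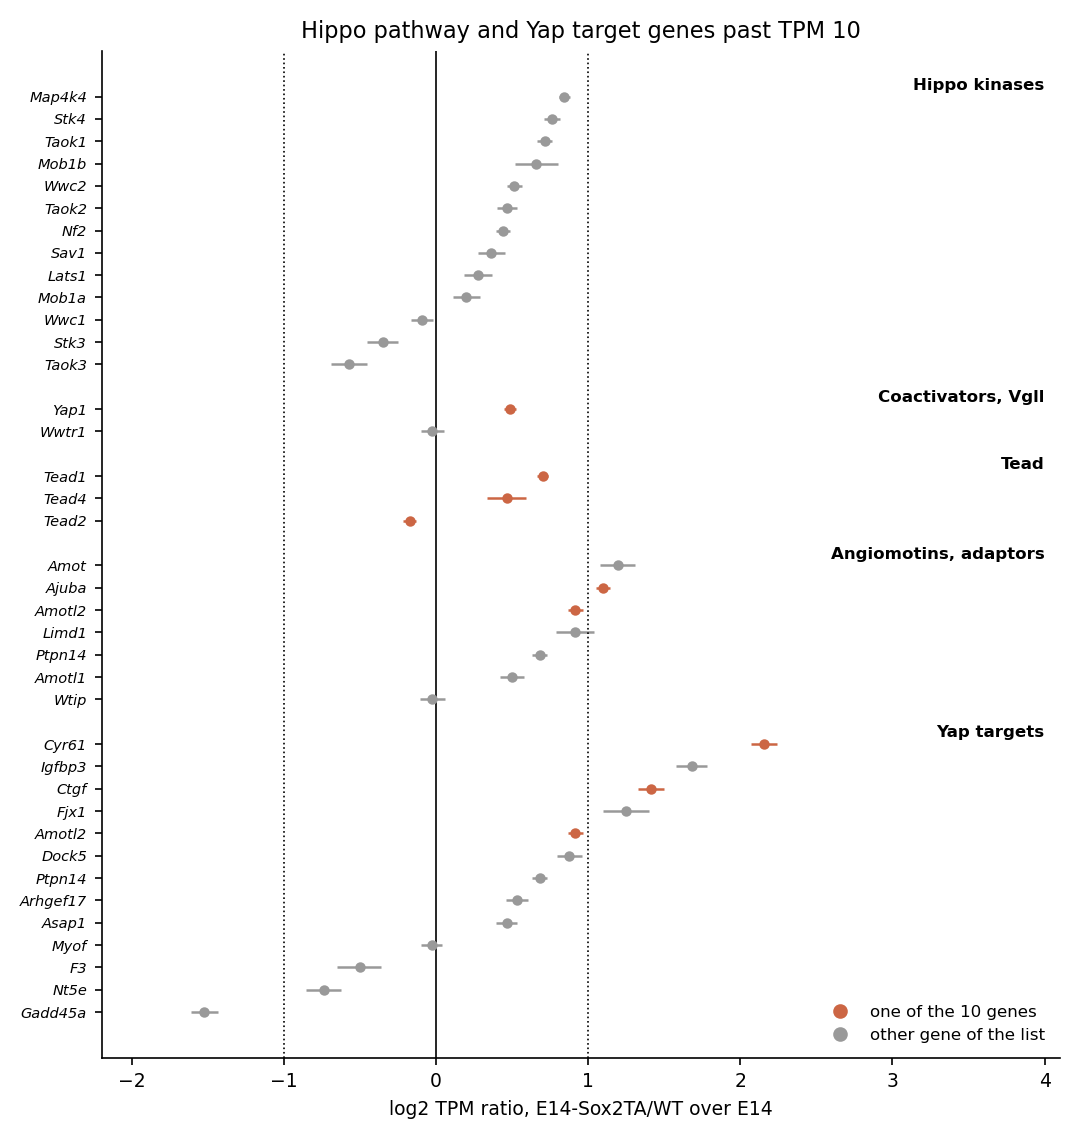
The log2 TPM ratio (E14-Sox2TA/WT over E14) of the pathway and Yap target genes past the filter, by role, with 95% counting intervals, a solid line at no difference and dotted lines at 2-fold. The 8 of the 10 genes past the filter are drawn in orange, Amotl2 under each of its roles, and Cyr61 (2.15) and Gadd45a (-1.52) mark the ends of the range.

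Ctgf, Cyr61 and Ankrd1 are known to respond to Srf with its coactivator Mrtf as well as to Yap, and Cyr61 and Ctgf also to growth factors as immediate-early genes, so both lists were compared. Of all genes past the filter, 4.17% were called higher and 4.07% lower, the shares to set beside the counts below. Of 14 actin and smooth-muscle genes controlled by Srf and Mrtf, 12 passed the filter, 6 were more than 2-fold higher (Tagln, Acta2, Myl9, Tpm1, Zyx and Flna) and none was lower, with a median log2 ratio of 1.10 and a range from 0.56 for Srf to 3.16 for Tagln. Acta2 and Myl9 passed through the mutant library alone, and Flna was under 2-fold without the GC and length trend (0.97). With the filter at a TPM of 1 the median of this list was 0.92. Of 12 immediate-early genes, 8 passed the filter, Junb was higher (1.67), Atf3 was lower (-1.31) and the median was -0.09. Atf3 (TPM 14.8 and 5.98) passed through the E14 library alone. In its upstream regulator analysis of the genes that differed between these cells, the study listed Mrtfa among the regulators with activated function. That analysis rests on the same RNA-seq and is not a separate measurement. The part of Srf activity in the ratios of Ctgf, Cyr61 and Ankrd1 was not tested. Of 10 trophectoderm genes, 4 passed the filter, with Cdx2 (4.69), Krt8 (1.53) and Krt18 (1.12) higher and Tfap2c lower (-1.67), while Elf5 had no reads in either library. Cdx2 had a TPM of 0.474 in E14 and 12.2 in E14-Sox2TA/WT cells, so it passed through the mutant library alone, and Krt18 was under 2-fold with FPKM (0.98). With the filter at a TPM of 1, 4 trophectoderm genes were higher and 3 were lower, beside 6.45% and 9.95% of all genes. The lower genes included Gata2 (-1.83) and Ascl2 (-1.45), and the median of the list was 0.64. Gata2 (TPM 3.19 and 0.900) passed this filter through the E14 library alone, and Cdx2 through the mutant library alone.

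Markers of other cells that could carry these transcripts were measured beside them. Of 10 fibroblast markers, only Thy1 passed the filter, and it was lower in E14-Sox2TA/WT cells (-1.81), where 4.07% of all genes were. Dcn, Lum and Postn had no reads in either library. The summed TPM of the 10 markers was 51.0 in E14 and 21.0 in E14-Sox2TA/WT cells, and without Thy1 it was 11.0 and 9.56. The collagens Col3a1 and Col1a2 were higher in the mutant at a low level. Col3a1 had 15 and 151 reads (TPM 0.0799 and 1.28), and Col1a2 had 43 and 109 reads (TPM 0.259 and 0.985). Pdgfrb was lower, with 1151 and 327 reads (TPM 6.75 and 2.85, log2 ratio -1.24). With the filter at a TPM of 1, 1 fibroblast marker (Col3a1) was higher and 2 (Thy1 and Pdgfrb) were lower, beside 6.45% and 9.95% of all genes. Col3a1 passed this filter through the mutant library alone. Of 10 primitive endoderm markers, 4 passed the filter, none was higher and Gata4 was lower (-1.98), and their summed TPM was 207 and 146. With the filter at a TPM of 1, 5 of them were lower, beside 9.95% of all genes. These were Gata4, Gata6 (-1.88), Sox17 (-2.09), Sox7 (-1.68) and Pdgfra (-2.04), and the median of the 9 measured was -1.68. Sox17 (TPM 3.32 and 0.778) and Sox7 (3.13 and 0.973) passed this filter through the E14 library alone. The part of these markers in the ratios of the 10 pathway genes was not tested. The 10 genes of the pathway lie on 7 chromosomes, and the median log2 ratio of all genes past the filter on each of these ran from -0.04 to 0.15.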

How the data were processed

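RNA-seq was performed by the authors on polyadenylated RNA of 1 E14 and 1 E14-Sox2TA/WT library. For each gene, the authors deposited read counts (whole numbers, not normalized), FPKM values and TPM values, and mm10 is the mouse build named in their notes. The submitters' processing notes name bcl2fastq 2.20.0, Trimmomatic, HISAT2 2.1.0 and StringTie 2.1.3b. Strand handling and the treatment of shared reads are not given in the sources used here. In GENCODE M21, Ctgf, Yap1, Tead2 and Tead4 overlap a gene on the opposite strand, and Tead1 and Lats2 overlap genes on both strands, so reads at these overlaps are uncertain.

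Ratios are TPM in the mutant divided by TPM in E14, with no pseudocount, a TPM filter of 10 and a threshold of 2-fold. Total counts were 60263536 and 44609228, and precision is given as exact 95% counting intervals, which do not cover PCR duplicates or variation between cultures. Ratios of 2 genes inside a library carry 95% normal intervals that are centred on the TPM ratio. Only the width of these intervals comes from the log odds of the reads. The 10 genes were set by symbol, and all 10 are named. Of the other lists, genes past the filter and 2-fold and those with the highest or lowest ratio could be named. Genes and lists were chosen with earlier results of these data known. Alternatives were other filters, pseudocounts and folds, FPKM, CPM, TMM (edgeR 4.0.16), median-of-ratios (DESeq2 1.42.0), centring, an interval rule, and removal of medians in 20 bins each of GC content and length of the longest GENCODE M21 transcript (99.5% of genes past the filter). The ratio and interval code was run on simulated Poisson counts scaled to library totals. That run held no length scaling and no variation between cultures, so it does not cover these. Near-identical stretches (95% identity over 200 bases, BLAST 2.17.0) occurred for Ctgf and Lats2 with genes that overlap them. Python 3.11.15, numpy 2.4.6 and scipy 1.17.1 were used.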

Additional observations from a re-analysis of the deposited data

How the results depend on the processing

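No paired analysis was possible because each genotype had 1 library, and for the same reason no replicate could be left out. The number of the 10 genes called higher (3) was 5 with a TPM filter of 1, with no filter or at 1.5-fold, and 1 at 3-fold, changes that these settings make by admitting more or fewer genes. It was 2 with FPKM or CPM, where Ajuba fell under 2-fold, and no gene of the 10 was called lower in any of the 15 alternatives. The median log2 ratio of the 10 genes past the filter (0.81) was 1.01 with a filter of 1 or none, 0.92 with a filter of 5 or 20, 0.74 with TMM, 0.76 with median-of-ratios, 0.64 with CPM, 0.72 when centred and 0.66 with FPKM. Over the same settings the median of all genes past the filter moved from 0.08 with TPM to -0.06 with FPKM or CPM. Of the Yap target list, the called higher genes (4) were 7 with a filter of 1 or at 1.5-fold, 9 with no filter and 2 at 3-fold. The called lower gene (1) became 2 with no filter or at 1.5-fold and 0 at 3-fold. Over all genes, 6.45% were called higher with a filter of 1, 14.2% at 1.5-fold, 10.1% with no filter and 1.14% at 3-fold. Those called lower were 18.7% with no filter, 10.5% at 1.5-fold and 1.5% at 3-fold. Of the single genes, Tead2 changed sign, to 0.036, with the GC and length trend removed, and the cause was not tested. By read counts, which are not scaled for length, the shares of Tead1, Tead2, Tead3 and Tead4 were 50.9%, 43.2%, 1.96% and 3.89% in E14 and 63.2%, 30.3%, 2.25% and 4.23% in E14-Sox2TA/WT cells, while FPKM gives the same shares as TPM by construction. Depth limits Ankrd1 most, with 32 reads in E14, and it passed the TPM filter of 1 through the mutant library alone.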
